A study of Mus musculus with 3 samples.

Results

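Committed myoblast spots were the spots of 3 spatial RNA sequencing sections in which the authors' deconvolution assigned a fraction of at least 0.02 of the transcripts to committed myoblasts. This fraction is called theta, and the spots were chosen by it alone. They numbered 265 of 2758 spots. The sections collected 2, 5 and 7 days post injury (dpi) contributed 113 of 859, 60 of 933 and 92 of 966 spots. Spots of the same section with a theta under 0.01 served as comparison spots and numbered 548, 708 and 656, whereas 198, 165 and 218 spots lay between these limits and entered neither group.

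The sections were cut from the tibialis anterior muscle of female C57BL/6J mice aged 5 months, all injected with notexin, a snake venom phospholipase that kills myofibers and spares muscle stem cells (MuSCs). No uninjured section was analysed here, so every spot came from an injured muscle. There was 1 section per time point, each in its own capture area of 1 slide, and the time point, the animal and the capture area cannot be told apart. Spots of a section are not replicates, so no test was made, no p-value is given, and the 95% intervals (exact Clopper-Pearson) cover the counting of spots only.

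After injury, quiescent MuSCs become activated, divide, and give rise to committed myoblasts, which leave the cell cycle and turn into myocytes that fuse with each other or with damaged fibers. Committed myoblasts are a brief stage of this course and are therefore sparse in any one tissue. Myod1, which encodes a transcription factor that fixes the myogenic fate, and Cdkn1c, which encodes an inhibitor of cyclin-dependent kinases, were taken as their markers. The paper associates Myod1 with MuSC activation, lists high Cdkn1c with proliferation, and names Myog as a marker of commitment. Transcript levels of single genes were not analysed here, so neither Myod1 nor Cdkn1c could be checked in these spots. The name rests on the deconvolution. A Visium spot pools the RNA of a small region with several cells or parts of cells, and a theta is an estimated fraction of transcripts and not of cells.

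Committed myoblasts were a small component even of the spots selected for them. Their theta ran from 0.02003 to 0.162 with a median of 0.0274 at 2 dpi. At 5 dpi it ran from 0.02003 to 0.0761 with a median of 0.0268, and at 7 dpi from 0.0201 to 0.132 with a median of 0.0274. The distributions overlapped almost wholly between sections, and a theta of at least 0.05 was reached by 14, 4 and 5 spots at 2, 5 and 7 dpi. The selected spots just inside the limit had 0.02003, 0.02003 and 0.02008, and the spots just outside had 0.01994, 0.01993 and 0.01984.

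Ranked by theta among the 27 types of a spot, committed myoblasts held a median place of 6, 5 and 5 in the order of the time points, and no spot had them in the first place. The best place was the second in each section. The spot with the highest theta of all, 0.162 at 2 dpi, was led by type IIb myonuclei (0.255), which are the nuclei of fast glycolytic fibers, followed by patrolling monocytes (0.204). The highest spot at 5 dpi (0.0761) was led by type IIb myonuclei (0.335) and fusing myocytes (0.120). The highest spot at 7 dpi (0.132) was likewise led by type IIb myonuclei (0.546) and fusing myocytes (0.113).

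Committed myoblast spots made up 13.2% of the spots at 2 dpi (10.97 to 15.6%), 6.43% at 5 dpi (4.94 to 8.20%) and 9.52% at 7 dpi (7.75 to 11.6%). In spots of one depth range, 5000 to 10000 unique molecular identifiers (UMIs, each counting a captured transcript), the shares were 9.84% (30 of 305 spots, 6.74 to 13.7%), 5.49% (14 of 255, 3.03 to 9.04%) and 5.52% (9 of 163, 2.56 to 10.2%). The 2 dpi section had the highest share in both settings. Within the depth range the intervals of the 3 sections overlapped, and the shares at 5 and 7 dpi were nearly equal.

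The selected spots were shallower than the comparison spots, by an amount that differed between sections. At 2 dpi their UMI counts ran from 1003 to 20358 with a median of 3930, against a median of 7642.5 in comparison spots. At 5 dpi they ran from 1186 to 26124 with a median of 9170, against 11898.5, and at 7 dpi from 1059 to 25935 with a median of 15514.5, against 15764.5. The ratios of medians were 0.514, 0.771 and 0.984, so that at 7 dpi the medians were nearly equal. Single spots of both groups covered most of the same range in every section.

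When the spots of each section were sorted by UMI count into 5 groups of equal size, the shallowest group at 2 dpi held 41 of the 113 selected spots and the deepest held 8. At 5 dpi the shallowest group held 23 of 60 and each of the others 7 to 11. At 7 dpi the shallowest held 25 of 92, but the fourth group held 27 and the third 22. The shallow end was thus the most populated at 2 and 5 dpi, and at 7 dpi a second set of selected spots came from deep spots. A low theta is estimated from few transcripts in a shallow spot, and depth is for this reason given beside the results that follow.

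**Figure D1:**
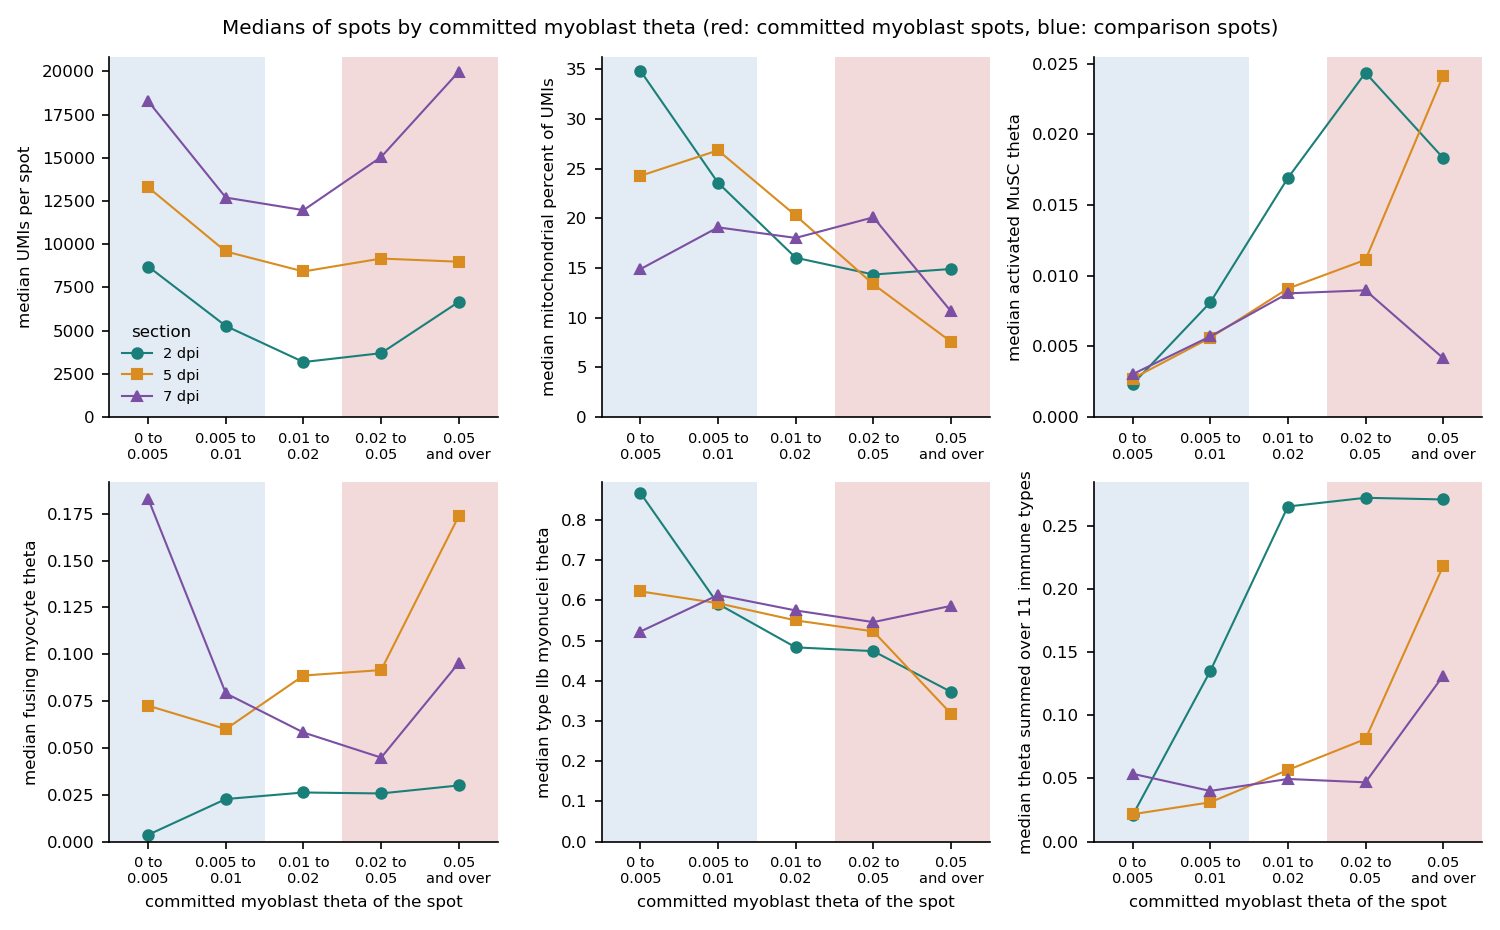
Median UMIs, mitochondrial percent, and thetas of activated MuSCs, fusing myocytes, type IIb myonuclei and summed immune types (y axes) in 5 bands of committed myoblast theta (x axis), with 1 line per section. The blue field marks comparison spots and the red field committed myoblast spots. Activated MuSC theta is higher in the 0.02 to 0.05 band than in both comparison bands at 2, 5 and 7 dpi, whereas the line for fusing myocytes runs down from 0.183 in the lowest band to 0.0449 in the 0.02 to 0.05 band at 7 dpi. The last band holds 14, 4 and 5 spots.

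The first question was whether the selected spots also held the stages on either side of commitment. Activated MuSCs, the preceding stage, were higher in the selected spots of all 3 sections. Their theta ran from 0.00555 to 0.0968 with a median of 0.0231 in selected spots at 2 dpi, against a median of 0.00351 in comparison spots. The medians were 0.0116 and 0.00365 at 5 dpi, and 0.00861 and 0.00408 at 7 dpi. The mean theta was 4.72, 3.12 and 2.05 times that of comparison spots at 2, 5 and 7 dpi.

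Activated MuSCs were present, at a theta of at least 0.01, in 102 of 113 selected spots at 2 dpi (90.3%, 83.2 to 95.04%) and in 81 of 548 comparison spots (14.8%, 11.9 to 18.0%). At 5 dpi they were present in 33 of 60 (55.0%, 41.6 to 67.9%) against 75 of 708 (10.6%, 8.42 to 13.1%). At 7 dpi they were present in 41 of 92 (44.6%, 34.2 to 55.3%) against 86 of 656 (13.1%, 10.6 to 15.9%). The intervals did not overlap in any section, and the share of the selected spots was 6.11, 5.19 and 3.40 times that of the comparison spots. In spots with 5000 to 10000 UMIs the shares were 83.3% and 12.9% at 2 dpi, 71.4% and 13.8% at 5 dpi, and 66.7% (6 of 9 spots) and 27.4% at 7 dpi. Over all depths, B cells (8.21), neutrophils (7.27) and T cells (6.62) had larger share ratios at 2 dpi. At 5 dpi T cells (16.5), B cells (11.8), NK cells (10.3), inflammatory monocytes (9.72) and dendritic cells (5.71) did. No comparison spot passed the limit for neutrophils there. At 7 dpi quiescent MuSCs (7.43), artery endothelial cells (6.73) and neutrophils (3.57) had larger share ratios. The other types had smaller ones. Some of the larger ratios rest on few selected spots. Neutrophils were present in 2 of 92 at 7 dpi, and B cells in 5 and NK cells in 7 of 60 at 5 dpi.

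Quiescent MuSCs, the resting stem cells from which the lineage starts, were higher in the selected spots too, although at lower thetas than activated MuSCs. Their median theta was 0.0125 against 0.00300 at 2 dpi, 0.00628 against 0.00293 at 5 dpi, and 0.00480 against 0.00263 at 7 dpi. They were present in 61.1%, 15% and 27.2% of the selected spots and in 12.4%, 4.24% and 3.66% of the comparison spots. At 7 dpi, 25 of the 92 selected spots and 24 of the 656 comparison spots passed the limit.

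Fusing myocytes, the following stage, did not share this pattern. At 2 dpi their theta ran from 0.00434 to 0.170 in selected spots with a median of 0.0266, against a median of 0.00611 in comparison spots. At 5 dpi the medians were 0.0950 and 0.0665, and at 7 dpi they were 0.0462 and 0.125. The selected spots were therefore higher than the comparison spots at 2 dpi and lower at 7 dpi. The means gave ratios of 1.47, 1.01 and 0.457, with mean thetas of 0.0374 and 0.0255 at 2 dpi, 0.116 and 0.115 at 5 dpi, and 0.0651 and 0.142 at 7 dpi.

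Fusing myocytes were present in 95.6% of the selected spots at 2 dpi (89.98 to 98.5%), 95% at 5 dpi (86.1 to 99.0%) and 89.1% at 7 dpi (80.9 to 94.7%). The corresponding shares of comparison spots were 39.2% (35.1 to 43.5%), 76.7% (73.4 to 79.8%) and 87.7% (84.9 to 90.1%). A fusing myocyte theta above the limit was thus near universal in the selected spots of every section, and at 7 dpi it was as frequent among comparison spots within the counting error. In spots with 5000 to 10000 UMIs the ratios of means were 2.08, 1.12 and 0.663 in the order of the time points, the last from 9 selected spots.

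Both neighbouring stages together were present in 97 of 113 selected spots at 2 dpi (85.8%, 78.0 to 91.7%), 33 of 60 at 5 dpi (55.0%, 41.6 to 67.9%) and 40 of 92 at 7 dpi (43.5%, 33.2 to 54.2%). The comparison spots held both in 13.3%, 10.3% and 12.8%. Selected spots with fusing myocytes and no activated MuSCs numbered 11, 24 and 42 in the order of the time points. Those with activated MuSCs and no fusing myocytes were few, at 5, 0 and 1 spots, and those with neither numbered 0, 3 and 9, where 0 of 113 allows a share of up to 3.21%.

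**Figure D2:**
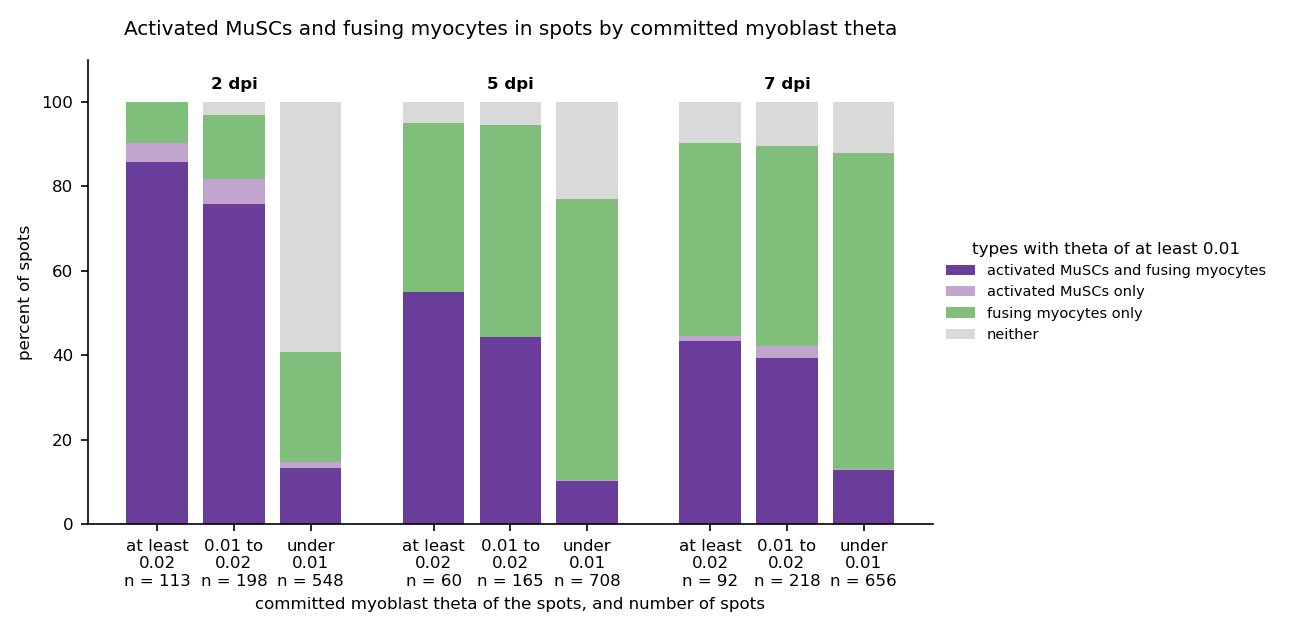
Percent of spots (y axis) in which activated MuSCs, fusing myocytes, both or neither had a theta of at least 0.01, for 3 ranges of committed myoblast theta in each section (x axis, with the number of spots). Spots with both stages made up 85.8%, 55.0% and 43.5% of committed myoblast spots and 13.3%, 10.3% and 12.8% of comparison spots at 2, 5 and 7 dpi, and the spots between the limits were closer to the committed myoblast spots.

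Across all spots of a section, the committed myoblast theta had a Spearman's rho with activated MuSC theta of 0.87 at 2 dpi (859 spots), 0.65 at 5 dpi (933) and 0.53 at 7 dpi (966). With fusing myocyte theta the rho was 0.59, 0.03 and -0.38. With the UMI count of the spot it was -0.60, -0.37 and -0.38. These are descriptions of spots that share a section and a reference, and thetas of a spot sum to 1. Among the selected spots alone, the rho with activated MuSC theta was -0.13, 0.36 and -0.05.

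Within the selected spots, committed myoblasts were the stage with the highest theta among the 4 myogenic stages in 40 of 113 spots at 2 dpi (35.4%, 26.6 to 45.0%), 9 of 60 at 5 dpi (15%, 7.10 to 26.6%) and 34 of 92 at 7 dpi (37.0%, 27.1 to 47.7%). Among comparison spots, which were chosen for a low value of this theta, committed myoblasts led in 9.85%, 7.77% and 5.34%. Fusing myocytes led in 42, 51 and 55 selected spots (37.2%, 85% and 59.8%), and in 69.9%, 86.6% and 92.2% of comparison spots. Activated MuSCs led in 29 spots at 2 dpi and in 0 of 60 and 0 of 92 at 5 and 7 dpi, which allow shares of up to 5.96% and 3.93%. Quiescent MuSCs led in 2, 0 and 3 spots. Of the 3 sections, the selected spots at 5 dpi were hence most often led by fusing myocytes, at a share near that of their comparison spots. At 2 and 7 dpi fusing myocytes led less often in selected than in comparison spots.

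Committed myoblasts accounted for a median of 30.3% of the theta summed over the 4 stages in the selected spots at 2 dpi, with a range of 10.3 to 74.3%. At 5 dpi the median was 20.7% (5.63 to 74.7%) and at 7 dpi it was 30.01% (7.204 to 92.9%). The comparison spots had medians of 20.5%, 6.07% and 3.69%. Since the selection used this theta, the gap to the comparison spots is given as a description.

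The next measures were the shares of mitochondrial and ribosomal protein transcripts. The genes of both classes were left out of the deconvolution reference, so these shares did not enter theta directly, although they come from the same spots. Mitochondrial transcripts are abundant in mature fibers, and ribosomal protein transcripts are abundant in growing and dividing cells. At 2 and 5 dpi the selected spots had a lower mitochondrial and a higher ribosomal protein percentage than the comparison spots, and at 7 dpi the order was the opposite for both.

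In the selected spots at 2 dpi the mitochondrial percentage ran from 4.66 to 42.9% with a median of 14.3%, against a median of 33.7% in comparison spots. At 5 dpi it ran from 3.92 to 42.5% with a median of 12.7%, against 25.9%, and at 7 dpi from 5.34 to 56.2% with a median of 19.9%, against 16.2%. The differences of medians were -19.4, -13.3 and 3.71 percentage points. At 2 dpi the middle 50% of the spots of the groups did not overlap, with an upper quartile of 20.1% in selected spots and a lower quartile of 26.8% in comparison spots. At 5 and 7 dpi the quartile ranges overlapped.

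The ribosomal protein percentage had medians of 8.50% and 4.44% at 2 dpi, 9.34% and 6.06% at 5 dpi, and 7.07% and 8.21% at 7 dpi in selected and comparison spots. The differences were 4.06, 3.28 and -1.14 percentage points. The selected spots ran from 4.48 to 16.6% at 2 dpi, from 3.91 to 22.2% at 5 dpi and from 3.64 to 14.6% at 7 dpi, and all 3 ranges overlapped those of the comparison spots.

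In spots with 5000 to 10000 UMIs the mitochondrial medians were 15.8% and 33.7% at 2 dpi, 20.4% and 24.3% at 5 dpi, and 13.5% and 18.0% at 7 dpi. The ribosomal protein medians were 10.01% and 4.65%, 7.59% and 6.28%, and 8.99% and 7.10%. Both differences at 7 dpi thus had the direction of the earlier time points in this depth range, where 9 selected spots remained, and the difference in mitochondrial percentage at 5 dpi shrank to -3.92 points. At 2 dpi the mitochondrial difference was -17.9 points and the ribosomal protein difference was 5.36 points, larger than the 4.06 points over all depths.

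**Figure D3:**
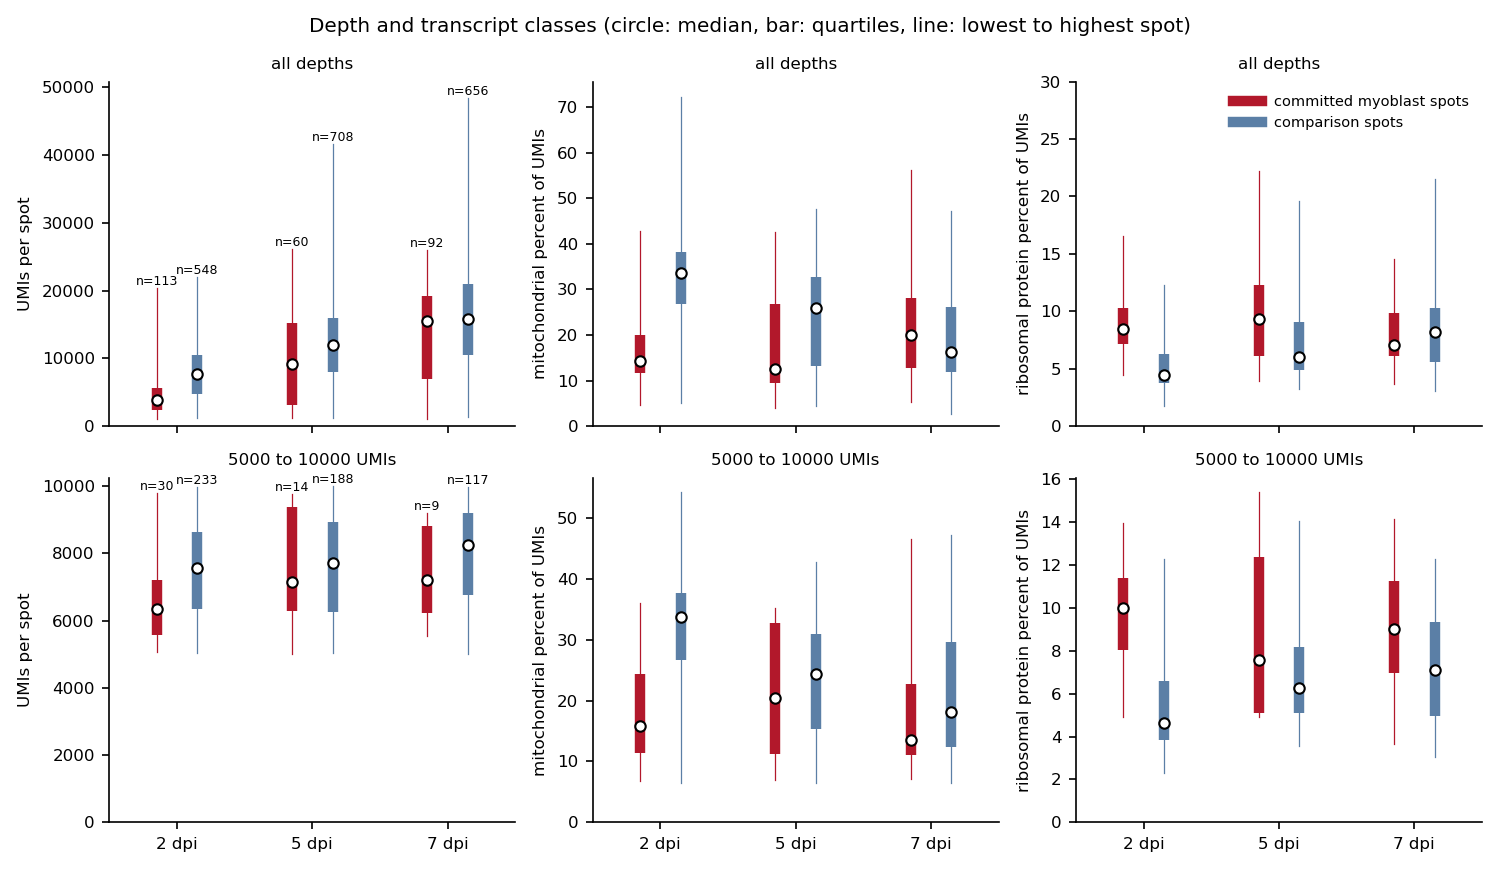
UMIs per spot, mitochondrial percent and ribosomal protein percent of UMIs (y axes) in committed myoblast spots (red) and comparison spots (blue) of each section (x axis), over all depths (top) and in spots with 5000 to 10000 UMIs (bottom). Circles are medians, bars run between the quartiles, and lines from the lowest to the highest spot. The mitochondrial medians of 14.3% and 33.7% at 2 dpi stand apart, and those of 19.9% and 16.2% at 7 dpi are in the opposite order.

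The remaining types describe the tissue around the committed myoblasts. Of the 26 other types, 15 had a mean theta at least 2-fold higher in the selected spots than in the comparison spots at 2 dpi (57.7%). At 5 dpi there were 13 (50%), and at 7 dpi 5 (19.2%). At least 2-fold lower were 1, 0 and 1 types in the same order. The median ratio over the 26 types was 2.11, 2.06 and 1.47. The activated MuSC ratio of 4.72 at 2 dpi was the highest of the 26, in a background in which most types were higher. At 5 dpi its 3.12 was above the median ratio but below those of dendritic cells (4.72) and NK cells (3.73). At 7 dpi its 2.05 was the lowest of the 5 values past 2-fold. Without the 3 highest selected spots of activated MuSCs, their ratio was 4.43, 2.67 and 1.84 in the order of the time points.

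Myonuclei, which represent mature fibers, made up less of the selected spots at 2 and 5 dpi. Type IIb myonuclei had a mean theta of 0.435 against 0.716 at 2 dpi, 0.484 against 0.626 at 5 dpi, and 0.534 against 0.577 at 7 dpi. Type IIx myonuclei, from another kind of fast fiber, had means of 0.0210 against 0.0679 at 2 dpi, 0.101 against 0.116 at 5 dpi, and 0.126 against 0.0835 at 7 dpi. Over all depths the selected spots were thus the poorer in type IIx myonuclei at 2 dpi and the richer at 7 dpi, with ratios of 0.310 and 1.51. In spots with 5000 to 10000 UMIs the type IIx ratios were 0.374, 1.31 and 0.538 in the order of the time points. The directions at 5 and 7 dpi were therefore the opposite in this depth range, where 14 and 9 selected spots remained. Summed, myonuclei had a median of 0.480 against 0.887 at 2 dpi, 0.638 against 0.819 at 5 dpi and 0.736 against 0.690 at 7 dpi.

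Immune types were the group with the most types past 2-fold in the selected spots at the first 2 time points, before spots were matched by myonuclear fraction. Of 11 immune types, 10 were at least 2-fold higher at 2 dpi and 10 at 5 dpi, and 0 at 7 dpi. Their summed theta had a median of 0.272 in selected spots against 0.0337 in comparison spots at 2 dpi, 0.0899 against 0.0285 at 5 dpi, and 0.0478 against 0.0478 at 7 dpi. Restricted to 5000 to 10000 UMIs per spot, 11, 6 and 4 of the 11 passed 2-fold, and the 7 dpi medians were 0.0894 and 0.0395 with 9 selected spots. The ratios over all depths were also taken without the 3 highest selected spots of each type. Immune types still past 2-fold at 5 dpi were then T cells (2.54), NK cells (2.25), inflammatory monocytes (2.18) and B cells (2.09). At 2 dpi dendritic cells fell to 1.82, and the other immune types past 2-fold stayed so.

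At 2 dpi the largest immune component was patrolling monocytes, with a mean theta of 0.138 in selected spots and 0.0465 in comparison spots. The paper gives this label to cells high in Fabp5 and negative for Cx3cr1 and Ly6c2. Cxcl10+ monocytes, which express an interferon-induced chemokine, had 0.0339 and 0.0103, and M1 macrophages, the early inflammatory state, 0.0294 and 0.00784. T cells had 0.0150 and 0.00417, and NK cells, which are innate lymphocytes, 0.0107 and 0.00367. Cx3cr1-lo M2 macrophages had 0.0242 and 0.00799 and Cx3cr1-hi M2 macrophages 0.0177 and 0.00724. Inflammatory monocytes were the lowest of the group, at 1.99-fold.

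At 5 dpi the leading immune type was Cx3cr1-hi M2 macrophages, a resolving state, with a mean theta of 0.0309 in selected and 0.0128 in comparison spots. Cxcl10+ monocytes had 0.0135 and 0.00543, and patrolling monocytes 0.0103 and 0.00481. Without the 3 highest selected spots of each type, the ratios of these types were 1.74, 1.92 and 1.46 in the order named. Dendritic cells, which present antigen, had the highest ratio of the group, 4.72, but their 3 highest selected spots held 61.0% of their summed theta, and the ratio was 1.94 without these spots. At 7 dpi Cx3cr1-hi M2 macrophages and Cxcl10+ monocytes were lower in selected spots, with ratios of 0.666 and 0.786. In spots with 5000 to 10000 UMIs at 7 dpi their ratios were 2.16 and 2.07, from 9 selected spots.

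**Figure D4:**
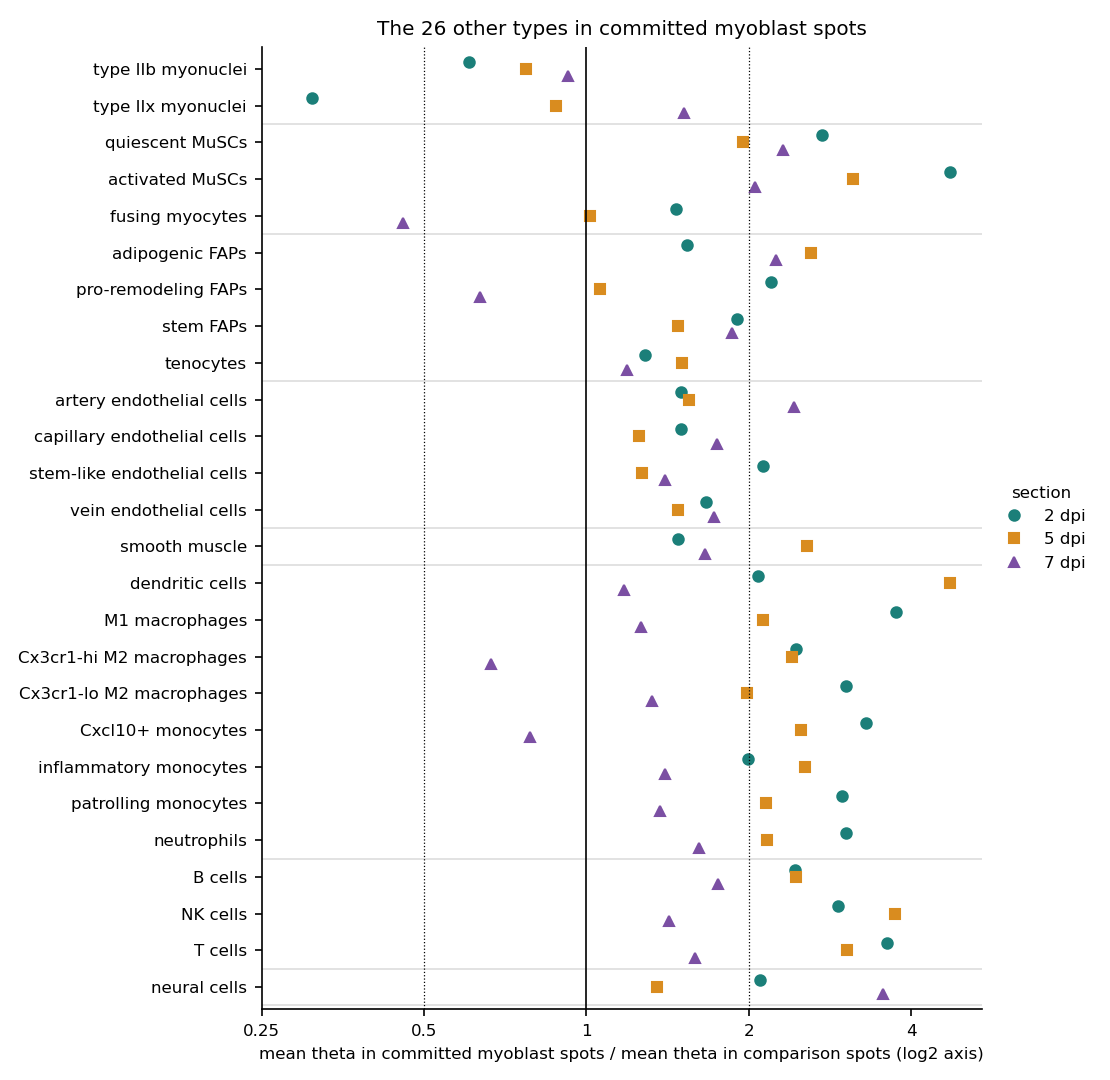
Mean theta in committed myoblast spots divided by that in comparison spots (x axis, log2 scale) for the 26 other types (y axis, grouped by lineage), with 1 symbol per section. Dotted lines mark 2-fold lower and 2-fold higher. Activated and quiescent MuSCs lie to the right of 1 in all 3 sections, and immune types lie near or past the 2-fold line at 2 and 5 dpi and between 0.666 and 1.75 at 7 dpi.

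Among stromal types, adipogenic fibro-adipogenic progenitors (FAPs), mesenchymal cells that can form fat, had mean thetas of 0.0118, 0.0250 and 0.0255 in the selected spots of the 3 sections. These means were 1.54, 2.60 and 2.25 times the comparison spots, and 1.40, 2.23 and 1.76 times without the 3 highest selected spots of each section. Pro-remodeling FAPs, which deposit and reshape matrix, had 0.0218, 0.0346 and 0.0386, with ratios of 2.20, 1.06 and 0.634. The 2 kinds of FAPs therefore stood in opposite relation to the selected spots at 7 dpi. Tenocytes and the other FAP type had ratios between 1.19 and 1.90 in the 3 sections.

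The 4 endothelial types had ratios from 1.25 to 2.43, with stem-like endothelial cells the highest at 2 dpi (2.13) and artery endothelial cells the highest at 7 dpi (2.43). Without the 3 highest selected spots of each, these 2.13 and 2.43 became 2.03 and 1.64. Smooth muscle had ratios of 1.48, 2.56 and 1.65, and at 5 dpi its 3 highest selected spots held 53.9% of its summed theta, with a ratio of 1.24 without them. Neural cells had the highest ratio at 7 dpi, 3.54, with means of 0.0247 and 0.00697. The 3 highest spots, with thetas of 0.536, 0.508 and 0.366, held 62.1% of that sum, the medians were 0.00174 and 0.00123, and the ratio was 1.39 without the 3 spots. In spots with 5000 to 10000 UMIs smooth muscle had ratios of 1.40, 0.740 and 0.634, below 1 at 5 and 7 dpi. Neural cells had a ratio of 0.867 at 7 dpi in this depth range, where 9 selected spots remained.

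The myonuclear fraction of a spot moved with most of these results. When the spots of a section were sorted by summed myonuclear theta into 5 groups of equal size, the 2 lowest groups held 48 and 47 of the 113 selected spots at 2 dpi, and the highest held 0 of its 171 spots. At 5 dpi the groups held 20, 19, 11, 10 and 0 selected spots from the lowest to the highest. At 7 dpi they held 15, 19, 24, 24 and 10. The selected spots were thus mostly spots of low myonuclear fraction at 2 dpi, and at 7 dpi they were found over the whole range of myonuclear fractions.

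Within these groups the mitochondrial percentage of selected and comparison spots was close at 2 and 5 dpi. In the lowest group at 2 dpi the medians were 11.5% and 10.5%, in the next 16.1% and 17.3%, and in the middle group 27.9% and 30.4%. In the first 3 groups at 5 dpi they were 7.78% and 9.11%, 12.8% and 13.7%, and 26.6% and 26.5%. When the comparison spots were weighted so that they followed the selected spots over the 5 groups, the difference in mitochondrial percentage was -0.559, -1.17 and 3.77 points at 2, 5 and 7 dpi, and that in ribosomal protein percentage was 0.217, 0.713 and -1.12 points. The differences at 2 and 5 dpi were thus small between spots of like myonuclear fraction, and those at 7 dpi kept their size.

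Activated MuSCs remained higher in selected spots after this weighting, with mean theta ratios of 2.28, 2.56 and 1.97. The medians in the lowest group were 0.0238 and 0.00881 at 2 dpi, 0.0164 and 0.00453 at 5 dpi, and 0.0184 and 0.00391 at 7 dpi. In the fourth group they were 0.00361 and 0.00428 at 5 dpi and 0.00514 and 0.00477 at 7 dpi, so that in spots of high myonuclear fraction the groups were close.

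Fusing myocytes had ratios of 0.586, 0.626 and 0.454 after the weighting and were thus lower in selected spots of all 3 sections. The medians in the lowest group were 0.0294 and 0.0484 at 2 dpi, 0.1997 and 0.304 at 5 dpi, and 0.0708 and 0.275 at 7 dpi. At 2 dpi the order over all spots, with more fusing myocyte theta in selected spots, was thus the opposite of that among spots of like myonuclear fraction. The number of types at least 2-fold higher was 1, 5 and 4 after the weighting. Summed immune theta at 2 dpi had medians of 0.452 and 0.499 in the lowest group and 0.241 and 0.247 in the next. It was thus not higher in selected spots of the groups that held most of them, although the middle group had 0.136 and 0.0715. At 5 dpi the first 3 groups had 0.207 and 0.0988, 0.0961 and 0.0517, and 0.0399 and 0.0293. The fourth group at 5 dpi had 0.0177 and 0.0207.

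**Figure D5:**
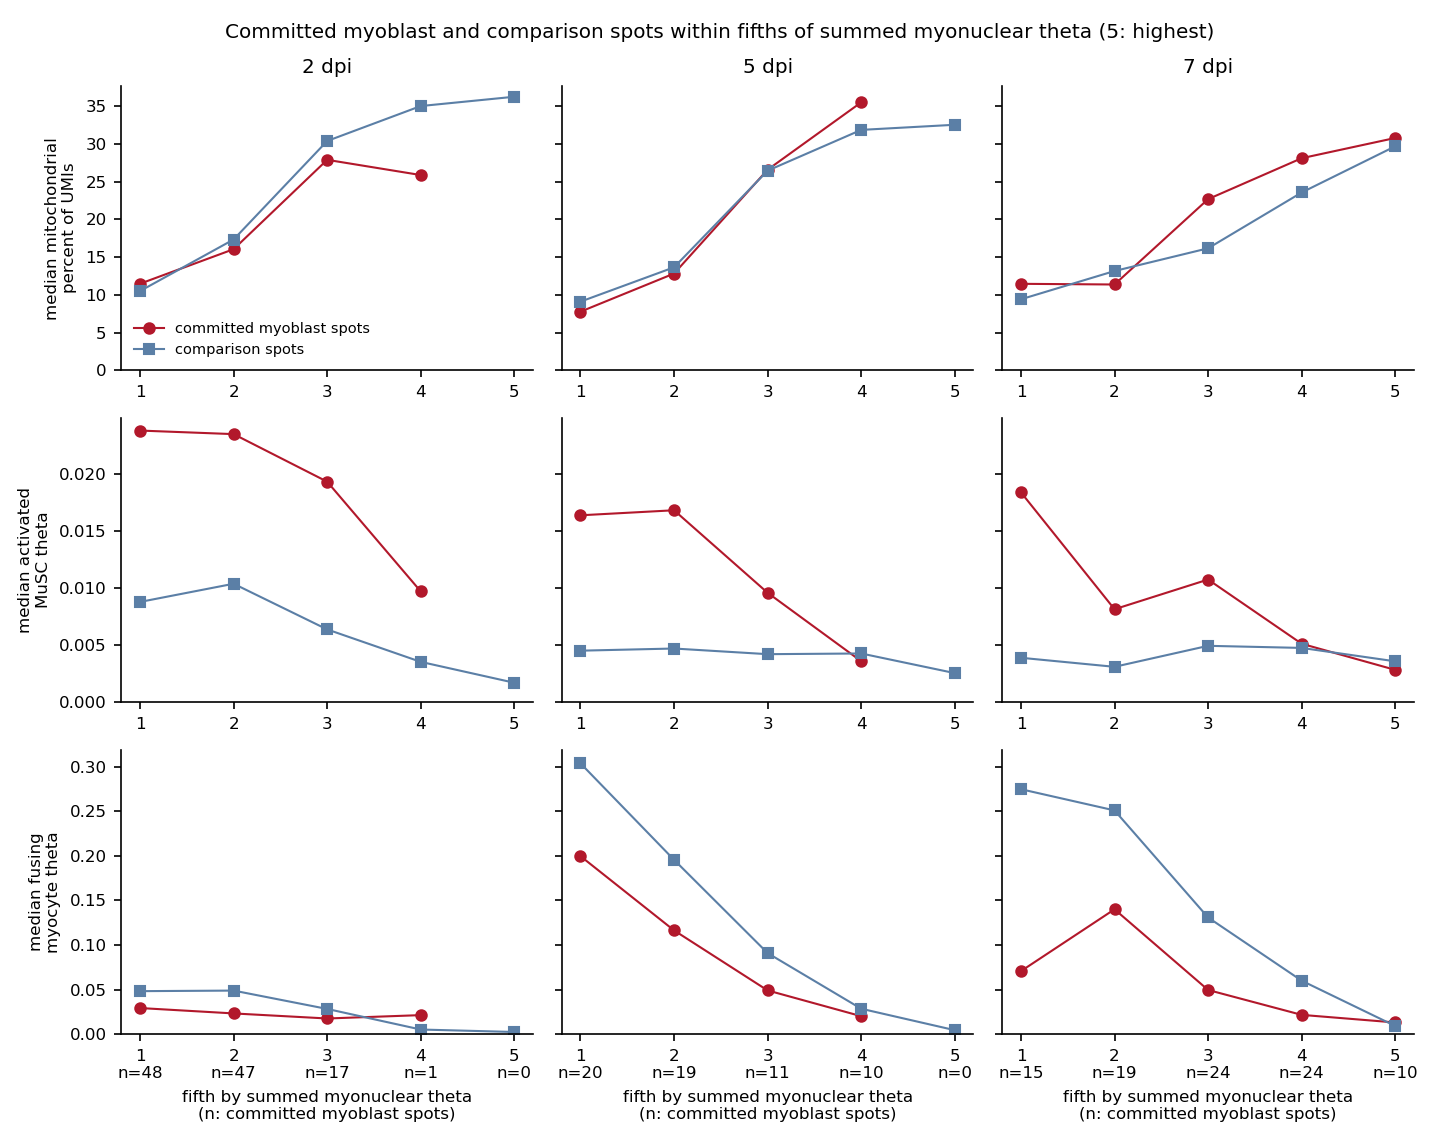
Median mitochondrial percent, activated MuSC theta and fusing myocyte theta (y axes) of committed myoblast spots (red) and comparison spots (blue) within 5 groups of equal size by summed myonuclear theta (x axis, 5 the highest, with the number of committed myoblast spots) in each section. The mitochondrial lines run close together at 2 and 5 dpi in groups 1 to 3, activated MuSC theta is higher in red in groups 1 to 3 of all 3 sections, and fusing myocyte theta is lower in red in those groups.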

How the data were processed

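Visium sections of notexin-injured mouse tibialis anterior, 1 each at 2, 5 and 7 dpi, were grouped by the treatment in the labels. Per the labels, reads were processed with Space Ranger 1.0 and Seurat 3.2.1 against mm10. The authors deposited raw UMI counts and numbers of genes for each spot. The deposited percent values give mitochondrial, hemoglobin and ribosomal protein transcripts as a percent of a spot's UMIs. The deposited theta values are fractions that sum to 1 over 27 types of a spot, which the authors estimated with BayesPrism from a single-cell reference without mitochondrial and ribosomal protein genes. The methods describe fewer types than the table holds, so the table may stem from another version of the reference. The tables held 5710385, 10803761 and 14734531 UMIs, and no spot was removed. They shared 505 barcodes in all 3 sections, and Visium arrays carry a common barcode set.

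Members, lists and the types given with values were chosen with earlier results of these data known. Values were given for the 4 myogenic stages, the 2 myonuclear types and each type with a mean theta of at least 0.01 in members and a 2-fold difference. Other types were given by group, with single ones as the highest or lowest. Means, medians and shares were computed in Python 3.11.15 with pandas 2.3.3 and scipy 1.17.1, per section and without a test. The weighting was tested on simulated data for a difference of medians over depth groups. The simulation did not cover weighting by myonuclear theta or ratios of mean thetas. Image alignments hold no barcodes, so no map was drawn.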

Additional observations from a re-analysis of the deposited data

Results flagged for a closer look

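Several effects ran in opposite directions in different sections, and the difference between sections was not tested, since each time point had 1 section. The median mitochondrial percentage of committed myoblast spots differed from that of comparison spots by -19.4, -13.3 and 3.71 points at 2, 5 and 7 dpi. The ribosomal protein percentage differed by 4.06, 3.28 and -1.14 points in the same order. With 5000 to 10000 UMIs the 7 dpi differences were -4.49 and 1.89 points, from 9 committed myoblast spots.

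The mean theta ratio of fusing myocytes was 1.47, 1.01 and 0.457 at 2, 5 and 7 dpi, and that of pro-remodeling FAPs was 2.20, 1.06 and 0.634. Cx3cr1-hi M2 macrophages had ratios of 2.44, 2.40 and 0.666, and Cxcl10+ monocytes 3.29, 2.49 and 0.786. The ratio of type IIx myonuclei over all depths was 0.310, 0.876 and 1.51, the reverse order of the other types named here. With 5000 to 10000 UMIs the type IIx ratio was 0.374, 1.31 and 0.538, so its directions at 5 and 7 dpi did not hold there.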

How the results depend on the processing

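Of 186 alternative values for 27 results, 112 stayed within the tolerance, 70 moved and 4 were classed as reversed. The reversed values were fusing myocyte ratios that fell from above 1 to below 1. Other values that crossed 1 or changed sign were classed as moved or within the tolerance. Among them, the fusing myocyte mean ratio at 5 dpi went from 1.01 to 0.809 and 0.626. At 7 dpi the UMI ratio went from 0.984 to 1.27, the mitochondrial difference from 3.71 to -4.49 points and the ribosomal protein difference from -1.14 to 1.89 points. Shares were compared by their intervals, ratios of means by a factor of 1.25 and counts by a factor of 1.5. Values are for 2, 5 and 7 dpi in order unless a time is given, and the cause of a move was not tested.

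In spots with 5000 to 10000 UMIs the share of spots selected was 9.84% at 2 dpi and 5.52% at 7 dpi, the UMI ratio at 2 dpi was 0.841, the fusing myocyte share ratio at 5 dpi was 1.41, and its mean ratio was 2.08 at 2 dpi and 0.663 at 7 dpi. The mitochondrial difference was -3.92 points at 5 dpi and -4.49 at 7 dpi, the ribosomal protein difference 5.36, 1.31 and 1.89 points, and 8 types at 5 dpi and 9 at 7 dpi were past 2-fold.

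With members at a theta of at least 0.05, the share of spots was 1.63%, 0.429% and 0.518%. The UMI ratio was 0.872 at 2 dpi and 1.27 at 7 dpi. The activated MuSC mean ratio was 5.49 at 5 dpi and 1.24 at 7 dpi, with a share ratio of 1.53 at 7 dpi, and the fusing myocyte mean ratio was 1.57 at 5 dpi. The mitochondrial difference was -18.3 points at 5 dpi and -5.61 at 7 dpi, the ribosomal protein difference was 6.11, 7.54 and 1.67 points, and 3 types at 7 dpi were past 2-fold.

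With all spots under 0.02 as comparison, values at 2 dpi were 2.77 for the activated MuSC share ratio, 2.89 for its mean ratio, 1.81 for the fusing myocyte share ratio, -16.6 points for the mitochondrial and 3.36 points for the ribosomal protein difference, and 8 types were past 2-fold, against 1 at 7 dpi. Weighting to the members' depth gave an activated MuSC share ratio of 3.82, a mean ratio of 3.54 and a fusing myocyte mean ratio of 1.85 at 2 dpi. Requiring a theta of 0.02 for presence gave activated MuSC share ratios of 10.4, 15.4 and 8.23. Means in place of medians gave mitochondrial differences of -14.5 points at 2 dpi and -6.29 at 5 dpi.

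Rescaling theta without myonuclei and committed myoblasts gave activated MuSC share ratios of 1.09, 1.199 and 1.45 and mean ratios of 1.75, 1.504 and 1.57. The fusing myocyte share ratio was 0.991 at 2 dpi, below 1, and 1 at 5 dpi, and its mean ratio was 0.787 at 2 dpi, also below 1, and 0.809 at 5 dpi. In each section 1 type was then past 2-fold. At 7 dpi 2 types were past 2-fold by UMI-weighted means and 2 by medians.

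The mean theta ratios and 3 settings were chosen after seeing the data. Weighting to the members' myonuclear theta gave activated MuSC share and mean ratios of 2.03 and 2.28 at 2 dpi. The fusing myocyte share ratio was 1.05 at 2 dpi and 0.980 at 5 dpi, the latter below 1, and its mean ratio was 0.586 at 2 dpi, below 1, and 0.626 at 5 dpi. The mitochondrial difference was -0.559 and -1.17 points and the ribosomal protein difference 0.217 and 0.713 points at 2 and 5 dpi, and 1 and 5 types were past 2-fold. Without the 3 highest member spots of each type 6 types at 5 dpi and 0 at 7 dpi were past 2-fold. Without the shallowest of 5 depth groups the activated MuSC mean ratio at 7 dpi was 1.498, and 0 types were past 2-fold there.

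No paired analysis was possible because each time point had 1 section. Thetas of a spot sum to 1 and come from 1 deconvolution, so types are not independent of each other or of the selection. Depth limits thetas near 0.01 in shallow spots, and spots could not be thinned to equal depth here.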
